A study of Mus musculus with 16 samples.

Results

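Replication-dependent histone genes encode the bulk of the histones made while DNA is copied, and 67 of the 21887 protein-coding genes of the mouse gene table belonged to them. They were taken by name: the current symbols H1f1 to H1f6 and H2ac, H2bc, H3c or H4c plus a number, or an older symbol beginning with Hist1h, Hist2h, Hist3h or Hist4h. A further 3 noncoding genes with such a name were left out. The members comprised 6 linker histone (H1) genes, 18 H2A, 18 H2B, 12 H3 and 13 H4 genes.

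The chromatin came from immortalized mouse embryonic fibroblasts carrying R26M2rtTA/+ and TetOcre, a doxycycline-inducible Cre recombinase. The experimental line was Sdhcfl/fl, with 2 floxed copies of the gene for the succinate dehydrogenase anchor SDHC, and the control line was Sdhcfl/wt, with 1 floxed copy. Both lines received doxycycline at 1 µg/mL and were collected at day 16, so the control cells carried the transactivator, the Cre transgene, the drug and 1 floxed Sdhc copy as well. Each line gave 2 samples per antibody (succinyllysine, H3K4me3 or H3K27me3) and 2 of input chromatin, 16 samples in all, and the labels name 1 line per genotype. Of 8 fibroblast marker genes, 7 had H3K4me3 (Thy1 did not) and none had H3K27me3. H3K4me3 was absent from the 3 endothelial markers and present at 1 of 3 haematopoietic markers (Spi1, 600 bp). H3K27me3 lay at 1 of the 3 endothelial markers (Cdh5) and 1 of the 3 haematopoietic markers (Ptprc). H3K4me3 was also listed at 3 of 4 epithelial markers (Epcam, Cdh1 and Esrp1), and 3 of the 4 (Epcam, Cldn3 and Esrp1) had H3K27me3. Over all protein-coding genes the shares were 61.3% for H3K4me3 and 20.1% for H3K27me3.

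Each antibody has a single deposited list that stands for its 4 ChIP samples and holds positions, with no height, score or depth. Values for single samples, replicate error and a difference between fl/fl and fl/wt cells therefore cannot be given, and every number below is a count or a position in 1 list per antibody. A gene was called marked when a listed region lay within 1000 bp of it. No test was run on the histone genes, since neighbouring genes share regions. The exact Clopper-Pearson 95% intervals treat genes as independent and cover counting error only.

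Each member encodes a core histone of the nucleosome (H2A, H2B, H3 or H4) or the linker histone H1. In their classical form the genes are short and lack introns, and their messages end in a stem-loop in place of a poly(A) tail. Most are switched on together at the start of S phase by NPAT, a factor activated by cyclin E and CDK2. H3K4me3 marks active promoters, H3K27me3 marks chromatin repressed by Polycomb complexes, and lysine succinylation is a modification of histones and other proteins whose donor is succinyl-CoA.

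By a gap of more than 1000000 bp, the genes fell into 5 groups on mm10. Chromosome 3 held 10 members within 50.3 kb (96219885 to 96270192), among them the H2A genes H2ac18 to H2ac21. Chromosome 13 held 23 members in a first cluster of 327.9 kb (21715711 to 22043658) and 31 in a second cluster of 403.9 kb (23531044 to 23934913), which has 5 of the 6 H1 genes. Chromosome 11 held the pair H2bu2 (older name Hist3h2ba) and H2aw (Hist3h2a) within 6.3 kb, and H4f16 (Hist4h4) lay alone on chromosome 6.

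RefSeq promoters (GRCm38.p6, the mm10 coordinates) were found for 62 members, 63 sequences in all because H2bc6 had 2 starts. None was found for H2bc21, H4c14, H3c7, H2bc4 and H3c1. The sequences below run up to the base before the annotated start, on the strand of the gene, with the CCAAT box (CCAAT), the TATA box (TATAAA) and the octamer (ATTTGCAT) in capitals on either strand. The first set shows promoters of 3 genes whose upstream stretch is crossed by a succinyllysine region, H3c3 (chr13:23745522-23745771, minus strand), H2bc9 (chr13:23543445-23543694, minus) and H3c6 (chr13:23562386-23562635, minus), and of H4c9 (chr13:22041363-22041612, minus), an H4 gene whose succinyllysine region lies farther upstream.
H3c3: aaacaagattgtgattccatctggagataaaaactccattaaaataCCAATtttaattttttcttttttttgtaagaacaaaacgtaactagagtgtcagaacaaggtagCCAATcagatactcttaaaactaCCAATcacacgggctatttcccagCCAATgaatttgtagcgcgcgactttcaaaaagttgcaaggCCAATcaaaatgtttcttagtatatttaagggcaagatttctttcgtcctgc
H2bc9: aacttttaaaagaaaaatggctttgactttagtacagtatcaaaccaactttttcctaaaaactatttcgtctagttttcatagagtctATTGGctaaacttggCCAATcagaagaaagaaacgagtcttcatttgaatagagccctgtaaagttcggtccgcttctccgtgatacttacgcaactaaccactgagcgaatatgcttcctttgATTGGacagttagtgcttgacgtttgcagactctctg
H3c6: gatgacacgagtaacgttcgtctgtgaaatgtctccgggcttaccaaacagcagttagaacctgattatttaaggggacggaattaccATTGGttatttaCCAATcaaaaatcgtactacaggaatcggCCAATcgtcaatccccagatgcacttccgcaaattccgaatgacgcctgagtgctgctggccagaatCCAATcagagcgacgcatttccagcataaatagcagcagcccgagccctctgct
H4c9: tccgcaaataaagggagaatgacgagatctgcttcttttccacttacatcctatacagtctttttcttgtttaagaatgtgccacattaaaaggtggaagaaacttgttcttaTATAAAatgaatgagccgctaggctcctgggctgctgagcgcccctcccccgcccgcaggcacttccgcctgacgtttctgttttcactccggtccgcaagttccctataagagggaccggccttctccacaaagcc

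The second set shows promoters of 2 members that carried H3K27me3 over all 250 bases shown; H2bc1, head to head with H2ac1, is not shown because its promoter overlaps that of H2ac1. H2ac1 (chr13:23934187-23934436, plus strand) encodes the testis H2A variant TH2A, and H2bu2 (chr11:58948661-58948910, plus strand) encodes an H2B of the chromosome 11 pair.
H2ac1: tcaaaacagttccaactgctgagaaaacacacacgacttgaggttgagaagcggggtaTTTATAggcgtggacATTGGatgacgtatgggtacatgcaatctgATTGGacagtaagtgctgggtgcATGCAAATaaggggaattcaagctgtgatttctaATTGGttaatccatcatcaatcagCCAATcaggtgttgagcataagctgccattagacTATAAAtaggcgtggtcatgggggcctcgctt
H2bu2: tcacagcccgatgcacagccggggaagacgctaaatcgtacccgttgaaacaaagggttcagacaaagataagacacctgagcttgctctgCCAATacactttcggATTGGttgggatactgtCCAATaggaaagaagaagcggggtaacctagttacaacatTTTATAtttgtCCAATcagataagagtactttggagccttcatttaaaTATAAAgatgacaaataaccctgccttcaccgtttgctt

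The third set shows a promoter present in 2 copies, at which none of the 3 marks was listed. The 150 bases before the start of H2bc23 (chr13:21810200-21810349, minus strand) and of H4bc24 (chr13:21833593-21833742, plus strand), both H2B genes by their older names Hist1h2bq and Hist1h2br, are the same.
H2bc23: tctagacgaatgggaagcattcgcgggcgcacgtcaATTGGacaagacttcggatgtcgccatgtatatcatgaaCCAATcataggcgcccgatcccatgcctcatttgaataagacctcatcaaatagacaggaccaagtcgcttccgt
H4bc24: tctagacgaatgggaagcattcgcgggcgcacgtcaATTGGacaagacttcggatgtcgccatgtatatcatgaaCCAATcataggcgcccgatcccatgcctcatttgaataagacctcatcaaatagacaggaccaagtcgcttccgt

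In these windows of 250 bases before to 50 after the start, CCAAT was found on either strand in 54 of 63 member promoters (85.7%), against 38.2% of all 21263 promoters in the table. It was in all 6 H1, 18 H2A, 17 H2B and 10 H3 promoters and in 3 of 12 H4 promoters. TATAAA was in 35 of 63 (55.6%, all promoters 12.6%). ATTTGCAT, the octamer known from H2B promoters, was in 14 (22.2%, all promoters 1.66%), of which 7 were H2A and 7 H2B promoters. AAACACA, known from H1 promoters, was in 5 of 6 H1 promoters, in 9 of all 63 (14.3%) and in 6.15% of all promoters. TTTGGCGC, an E2F-type motif, was in 0 of 63 and in 0.635% of all promoters. Side by side, TATAAA stood in 5 of 15 promoters of genes with succinyllysine and in 30 of 48 without it, CCAAT in 14 of 15 and 40 of 48, and the octamer in 3 of 15 and 11 of 48. These are descriptions of letters in a window and were not tested. The 5 members with no promoter entry include 2 with succinyllysine, H4c14 and H3c7.

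H3K4me3 lay at 60 of the 67 histone genes (89.6%, interval 79.7 to 95.7), where all protein-coding genes gave 61.3%. The histone genes are short, with 61 of the 67 at most 1000 bp long, and of 1516 other genes up to that length 4.95% had H3K4me3. Succinyllysine lay at 16 members (23.9%, interval 14.3 to 35.9), against 10.1% of all protein-coding genes and 2.31% of the other short genes. When the region had to touch the gene itself the order turned, with 3 members (4.48%) against 8.18% of all genes. Shares under that rule depend on gene length, and none was taken over the other short genes. All 16 also had H3K4me3, so succinyllysine was listed at 26.7% of the 60 members with H3K4me3, against 14.2% of all genes with it and 4 of 75 other short genes with it (5.33%). H3K27me3 lay at 3 members (4.48%, interval 0.933 to 12.5), against 20.1% of all genes and 12.6% of the other short genes, and at none of the 60 members with H3K4me3, against 12.1% of all genes with it. The other 4 of the 7 members without H3K4me3 had no mark.

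**Figure D1:**
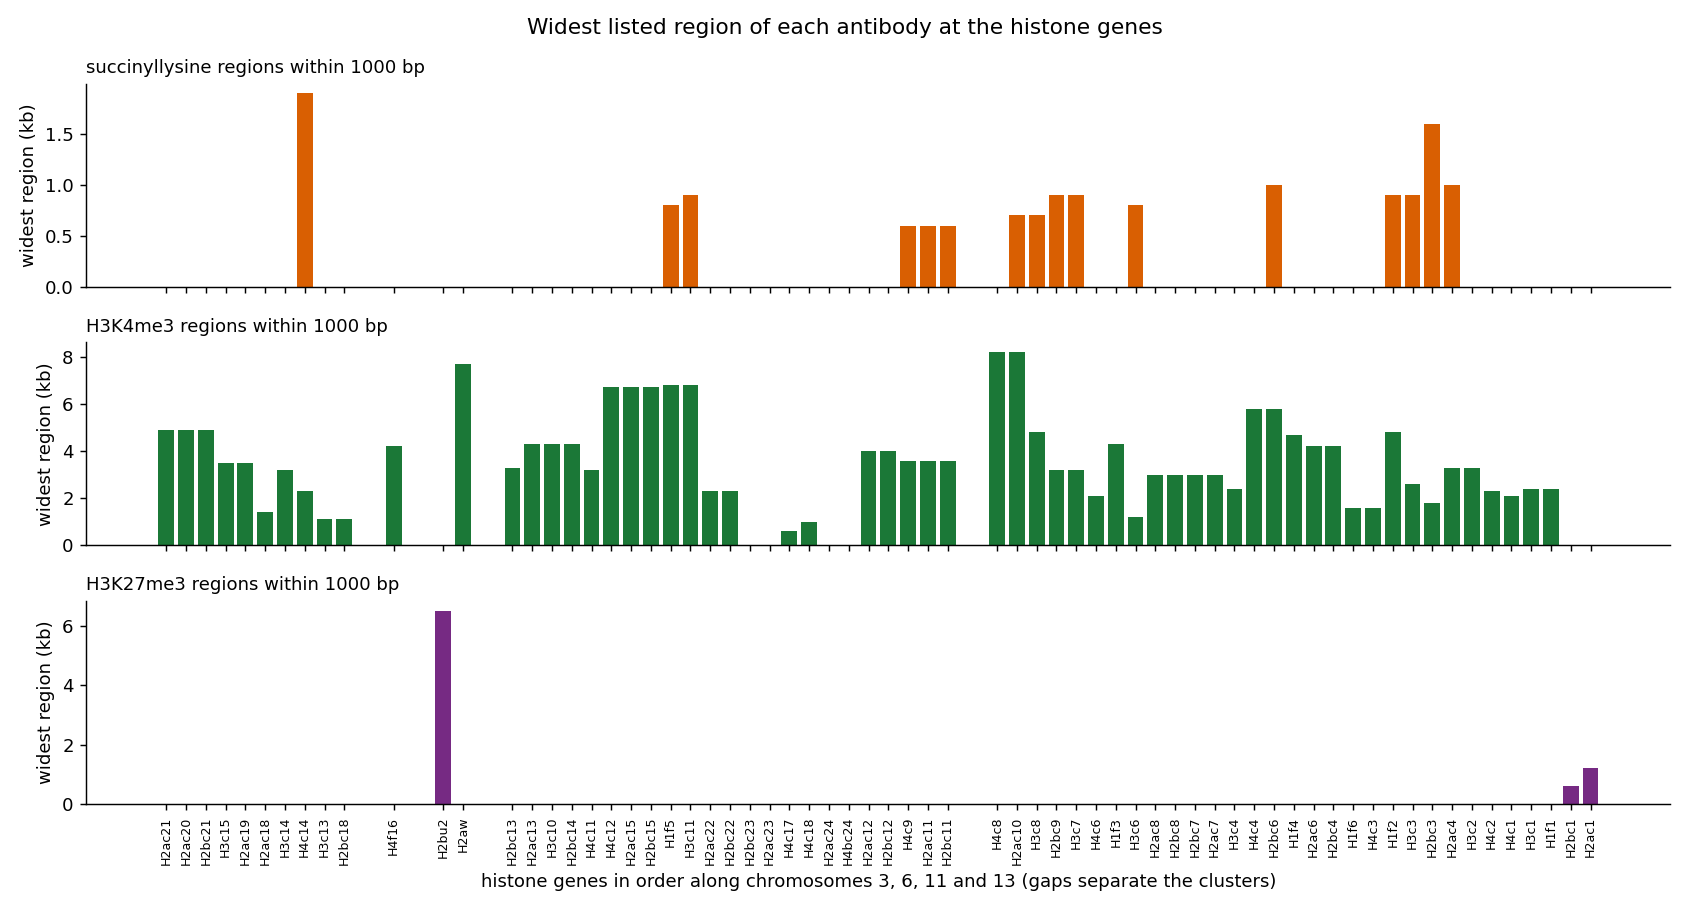
Bars give the width in kb of the widest succinyllysine (top), H3K4me3 (middle) or H3K27me3 (bottom) region within 1000 bp of each of the 67 histone genes, in order along chromosomes 3, 6, 11 and 13. Succinyllysine appears at single genes and in runs of up to 4 neighbours, H3K4me3 at 60 genes, and H3K27me3 at H2bu2, H2bc1 and H2ac1.

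By histone type, succinyllysine lay at 5 of 12 H3 genes (41.7%, interval 15.2 to 72.3), 2 of 6 H1 genes, 4 of 18 H2B genes, 3 of 18 H2A genes and 2 of 13 H4 genes (15.4%, interval 1.92 to 45.4). The intervals of the H3 and H4 shares overlap. All 6 H1, 12 H3 and 13 H4 genes had H3K4me3, and the 7 members without it were 3 H2A and 4 H2B genes. By cluster, succinyllysine lay at 10 of 31 members of the second chromosome 13 cluster (32.3%, interval 16.7 to 51.4), 5 of 23 of the first (21.7%, interval 7.46 to 43.7) and 1 of 10 on chromosome 3 (10%, interval 0.253 to 44.5). It was at neither gene on chromosome 11 nor at H4f16. In the second chromosome 13 cluster succinyllysine lay at 4 of 7 H3 genes (interval 18.4 to 90.1), 3 of 7 H2B, 2 of 6 H2A, 1 of 5 H1 and 0 of 6 H4 genes (interval 0 to 45.9). On chromosome 3 the order was different, with 1 of 1 H4 gene and 0 of 3 H3 genes.

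**Figure D2:**
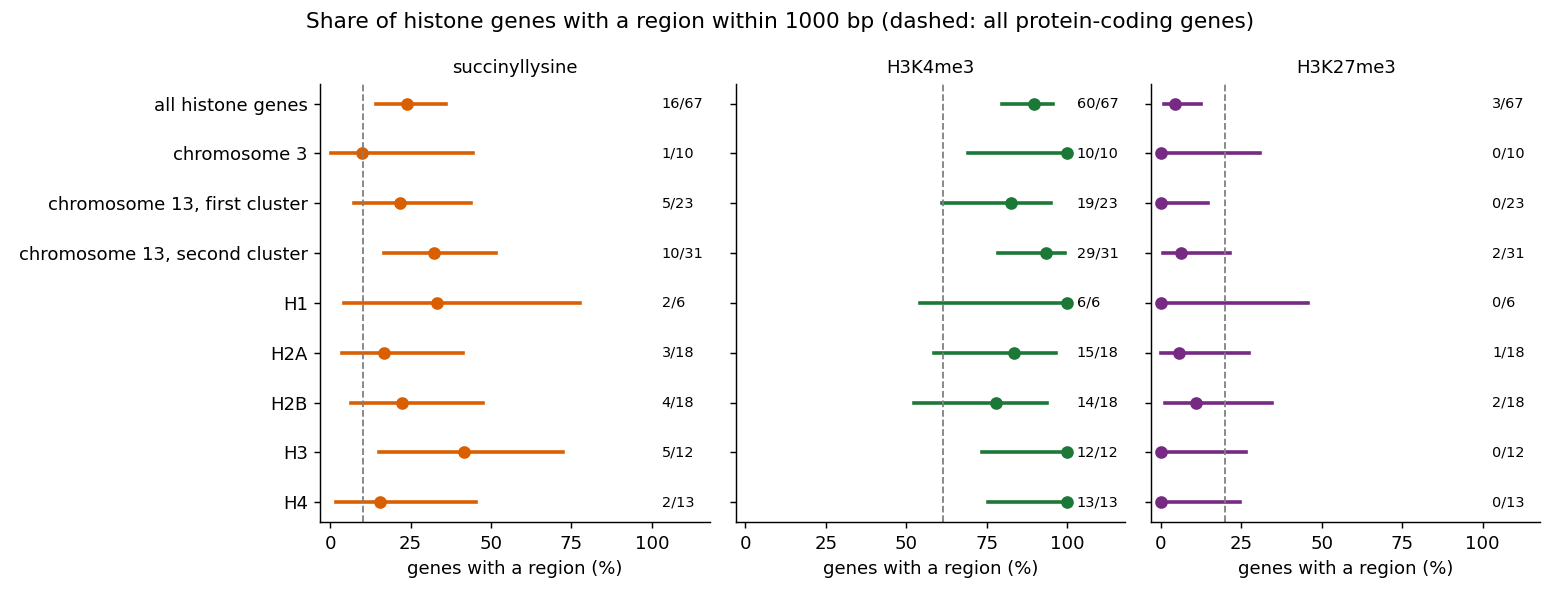
Points give the percent of genes with a region within 1000 bp and lines the exact 95% interval, for all 67 histone genes, for the 3 clusters of 10 or more genes and for each histone type, with counts at the right of each panel. The dashed line is the share of all protein-coding genes, 10.1% for succinyllysine, 61.3% for H3K4me3 and 20.1% for H3K27me3.

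The 16 genes were marked through 13 succinyllysine regions of 600 to 1900 bp (median 900 bp), where the median over the whole list was 300 bp. Taken per marked gene, the widest region had a median of 900 bp at the members and 1000 bp at all 2218 genes with succinyllysine. Of these regions 4 lay within 1000 bp of 2 or more members. A region of 600 bp (chromosome 13, 22041801 to 22042400) served H4c9, H2ac11 and H2bc11. A region of 700 bp (23534301 to 23535000) overlapped H2ac10 by 78 bp and reached toward H3c8. A region of 900 bp (23543501 to 23544400) lay at H2bc9 and H3c7, and another of 900 bp (23745601 to 23746500) lay between H3c3 and H2bc3. Along the chromosome the longest runs of neighbouring marked members were 4 genes from H2ac10 to H3c7, with 2 regions, and 4 from H1f2 to H2ac4, where H1f2 and H2ac4 had regions of their own. H4c14, H3c6 and H2bc6 stood alone.

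The longest unmarked stretches were 10 members from H2ac22 to H2bc12 and 8 from H2bc13 to H2bc15 in the first chromosome 13 cluster. The next were 7 from H3c2 to H2ac1 in the second cluster and 7 from H2ac21 to H3c14 on chromosome 3. The stretch from H3c2 to H2ac1 holds H3K4me3 at H3c2, H4c2, H4c1, H3c1 and H1f1, and H3K27me3 at H2bc1 and H2ac1.

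Among the linker histone genes, H1f2 (chromosome 13, 23738807 to 23739531), which encodes H1.2, had a succinyllysine region on each side. One of 800 bp (23738001 to 23738800) ended 7 bp before its start, and one of 900 bp (23740001 to 23740900) began 469 bp beyond its end. Both lay inside a 4800 bp H3K4me3 region. H1f5 (21779832 to 21780625), which encodes H1.5, had an 800 bp region (21778501 to 21779300) 531 bp beyond its end, within a 6800 bp H3K4me3 region. H1f1, H1f3, H1f4 and the testis gene H1f6 had H3K4me3 (2400, 4300, 4700 and 1600 bp) and no succinyllysine. H3K4me3 covered 100% of each H1 gene except H1f6, of which it covered 0%: the region at H1f6 is the one that covers its neighbour H4c3.

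Among the H3 genes, H3c3 (23745042 to 23745521) and H3c11 (21782915 to 21783397) had 900 bp regions that ended 80 and 304 bp upstream of the start. H3c6 (23561475 to 23562385) had an 800 bp region (23562601 to 23563400) that ended 216 bp upstream, and H3c8 shared its 700 bp region, which ended 418 bp upstream. H3c7, which has no annotated start in the promoter table, overlapped its region by 349 bp. The 7 H3 genes without succinyllysine were H3c1, H3c2, H3c4 and H3c10 on chromosome 13 and H3c13, H3c14 and H3c15 on chromosome 3. On the printed H3c3 promoter succinyllysine covered 171 of the 250 bases and H3K4me3 the same number, and on that of H3c6 they covered 35 and 135.

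Among the H2B genes, H2bc9 (23542923 to 23543444) had a region that ended 57 bp upstream of the start and covered 194 of the 250 printed bases, all 250 of which carried H3K4me3. H2bc3 (23746734 to 23747223) lay between its 900 bp region, 234 bp upstream of the start, and a 1600 bp region (23747901 to 23749500) 677 bp beyond its end. H2bc11 was the farthest from its region, 797 bp. H2bc6 is annotated over 37455 bp with 2 starts, and its 1000 bp region (23584201 to 23585200) lay inside this model. Among the H2A genes, H2ac4 (23751088 to 23751592) had a 1000 bp region (23749901 to 23750900) that ended 188 bp upstream of its start. That region was the only one of the 13 that touched no H3K4me3, with 200 bp between it and the nearest H3K4me3 region. H2ac10 overlapped its region by 78 bp, and H2ac11 was 77 bp from the shared region.

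Among the H4 genes, H4c14 (chromosome 3, 96262934 to 96263317) had the widest succinyllysine region of any member, 1900 bp (96263401 to 96265300), 83 bp beyond the gene's upper end. It began exactly where a 2300 bp H3K4me3 region stopped and a 1600 bp H3K4me3 region began, and 1600 of its bases lay on the latter. H4c9 (chromosome 13, 22040960 to 22041362) had the shared 600 bp region 439 bp upstream of its start.

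Succinyllysine mostly lay beside the histone genes. Of 16 marked genes, 3 (H2ac10, H3c7 and H2bc6) were touched by the region, and in no member was the gene covered in full. H3K4me3 covered 38 of 67 members in full and 19 in part. A region touched the gene itself in 85.1% of members against 60.2% of all genes for H3K4me3, and in 4.48% against 8.18% for succinyllysine. Gene length was not matched in these shares. H3K4me3 was listed on at least part of 12 of the 13 succinyllysine regions and on all of 10. In the whole list of 10888 regions 16.9% touched H3K4me3 and 10.2% lay within it, and among the 4161 within 1000 bp of any protein-coding gene 32.2% and 21.2% did. Those shares were not limited to genes with H3K4me3, which all 16 marked members had. At the members with H3K4me3 it covered a median of 95.9% of the gene with 1000 bp on each side. Of the 12 members with 1 annotated start and succinyllysine within 1000 bp of it, 10 had it only upstream (83.3%), against 46.1% of the 672 such genes in the whole table. Only regions within 1000 bp of the start count here. H1f2 and H2bc3 are among the 10, yet each also had a region within 1000 bp of the gene on its downstream side. Those regions began 1194 and 1167 bp downstream of the start. The region covered the start in 0 of these 12 members and in 26.2% of the 672 genes. At H1f2, H2bc9 and H3c3 the region ended 7, 57 and 80 bp from the start. These distances are below the 100 bp grid on which listed edges fall. These 12 members were served by 8 distinct regions, so the shares rest on fewer observations than genes. A shared region can also count as upstream of 1 member and downstream of its neighbour. The region at 22041801 to 22042400 was upstream of H4c9 and H2bc11 and downstream of H2ac11. That at 23534301 to 23535000 was upstream of H3c8 and downstream of H2ac10. The close spacing of the genes was not adjusted for.

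**Figure D3:**
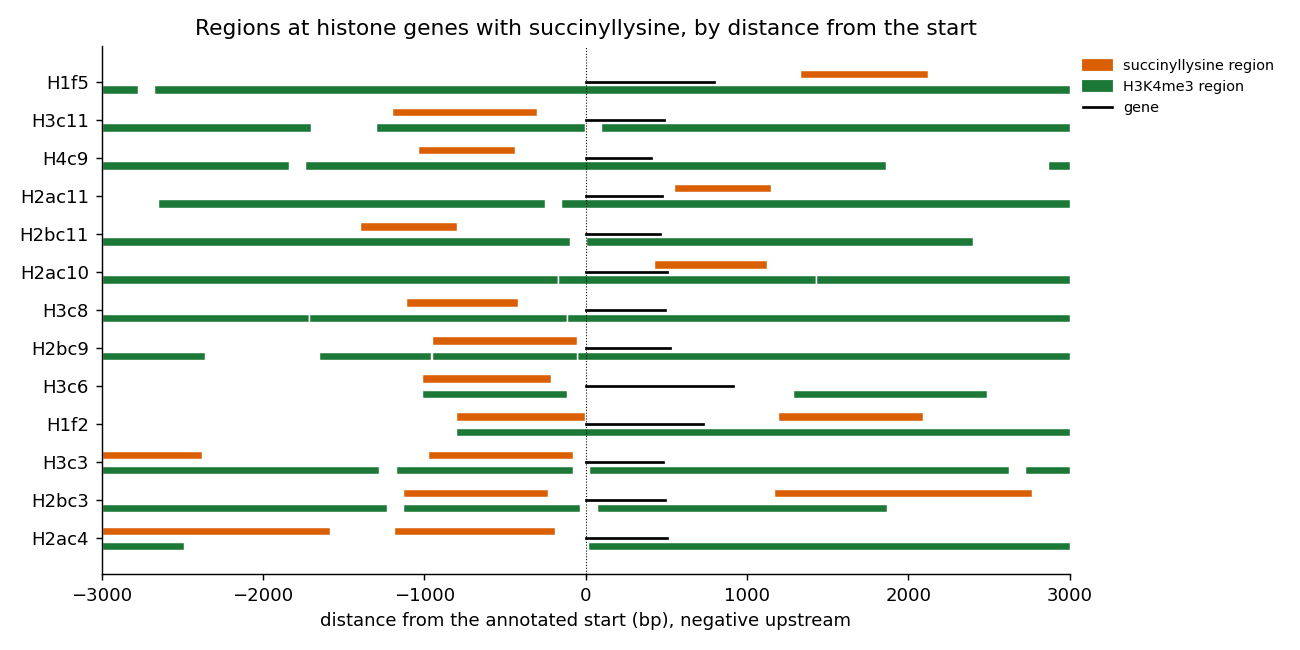
Horizontal bars show the succinyllysine (orange) and H3K4me3 (green) regions within 3000 bp of the annotated start for the 13 histone genes with succinyllysine and 1 start, with the gene as a black line and upstream to the left. No succinyllysine bar crosses the start, and 10 of the genes have one whose near edge lies 7 to 798 bp upstream.

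Edges of listed H3K4me3 regions often lay near histone gene starts. Of 53 members with 1 start and H3K4me3 within 1000 bp of it, 31 (58.5%, interval 44.1 to 71.9) had an edge of an H3K4me3 region within 200 bp of the start, against 20.8% of 7890 genes of the table. The start itself was covered in 37 of 53 (69.8%, interval 55.7 to 81.7), against 95.5%. The median distance from the start to the nearest edge was 152 bp in the members and 799 bp in all such genes. The closest, picked after their values were seen, were these: at H2bc18 and H2bc8 an edge lay 1 bp from the start, at H2ac18 and H2bc11 3 bp, and at H3c11 4 bp. Starts of H2bc18, H2bc8, H2bc11 and H3c11 were not covered, and that of H2ac18 was. Listed edges fall on a grid of 100 bp, so distances this short are finer than the list resolves. Uncovered starts of H2ac4, H3c3, H2bc3, H2bc14 and H2bc22 also lay 13 to 88 bp from an edge. Those of H3c6, H2ac19, H2ac6, H3c15, H4c17, H4c18 and H3c14 lay 116 to 416 bp from one. The covered share of the members therefore rests in part on calls within 1 grid step. The same grid holds for the 7890 genes, whose calls were not split this way.

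By type, an edge lay within 200 bp in 9 of 11 H2B genes, 7 of 10 H3 genes, 10 of 15 H2A genes, 5 of 12 H4 genes and 0 of 5 H1 genes. All 5 H1 starts were covered, as were 10 of 12 H4, 12 of 15 H2A, 5 of 10 H3 and 5 of 11 H2B starts. Histone genes lie close together, and 2 or more H3K4me3 regions lay within 1000 bp of the start in 24 of 53 members (45.3%), against 13.6% of the 7890 genes. Some edges are borders between regions that adjoin with no gap, as at H3c13 and H3c10, and the H3K4me3 list holds 1911 such borders. Others are outer ends of the only H3K4me3 region within 1000 bp of the start, as at H2ac18 and H4c3. An edge near a start is therefore not always a gap in the list. The spacing of the genes was not adjusted for, and its part in these counts was not tested.

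Among the 54 members with 1 start and H3K4me3 within 1000 bp of the gene, H3K4me3 covered 83.3% at 500 bp upstream, 68.5% at the start and 92.6% at 500 bp downstream. For 8564 other genes with H3K4me3 the same positions gave 72.6%, 87.6% and 87.6%. Some calls at the members' starts turn on distances below the grid step of the list, and some uncovered starts belong to members with promoter copies. Succinyllysine covered 16.7% of the 54 members at 500 bp upstream, none at the start and 1.85% at 500 bp downstream. In the other genes it covered 4.47%, 1.90% and 2.92%. Picked after the values were seen, the members' highest share was 18.5% at 800 bp upstream (10 genes). Some of these genes share a region, as H3c3 and H2bc3 do. The other genes had 4.31% there and their highest share, 4.57%, at 600 bp upstream. Farther downstream the members' share rose to 5.56% at 1400 to 2000 bp, where the other genes had 1.39% to 0.957%.

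**Figure D4:**
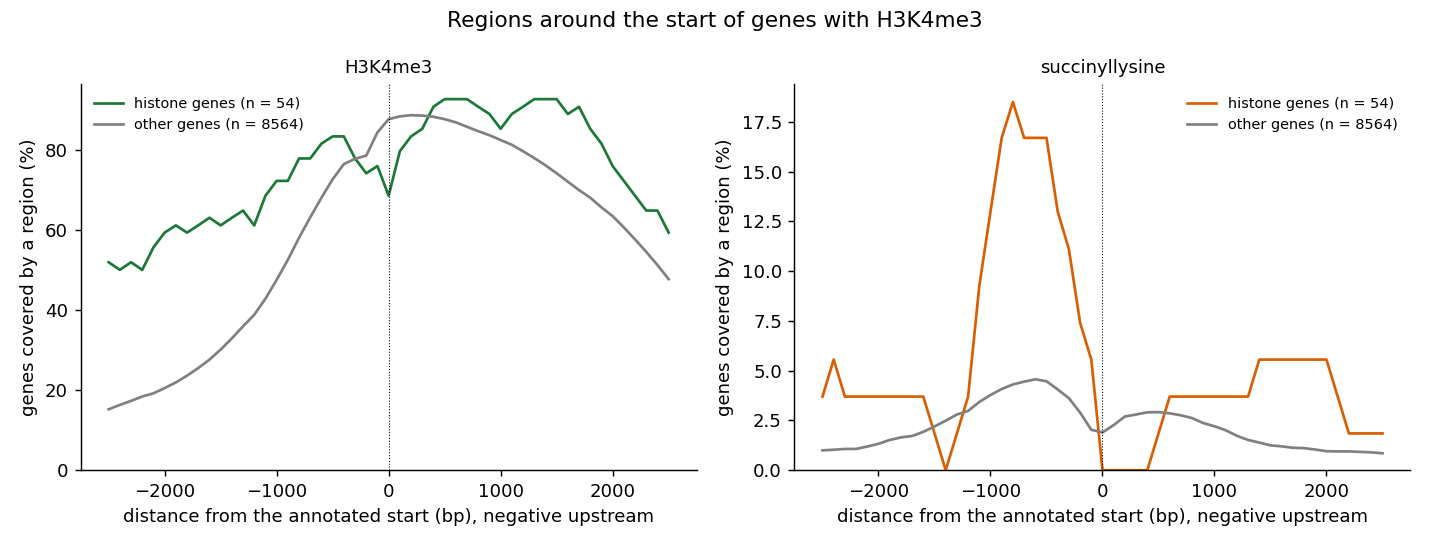
Lines give the percent of genes covered by an H3K4me3 (left) or succinyllysine (right) region at each 100 bp from the annotated start, for 54 histone genes (colour) and 8564 other genes (grey) with H3K4me3 and 1 start. The H3K4me3 line of the histone genes, which include members with promoter copies, dips to 68.5% at the start, where the grey line stands at 87.6%. Their succinyllysine line is highest at 800 bp upstream (18.5%), is 0 at the start and reaches 5.56% at 1400 to 2000 bp downstream. The grey succinyllysine line is highest at 600 bp upstream (4.57%).

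Many H2A and H2B genes sit head to head and share the stretch between their starts, and 10 such pairs with starts at most 500 bp apart were found among the members with 1 annotated start. All 10 lay on chromosome 13, with 163 to 280 bp between the starts. H2bc21 and H2bc4, which lie next to H2ac20 and H2ac6, have no annotated start and could not be paired. H3K4me3 lay on both sides in 7 of the pairs. The stretch between the starts was fully covered at H2bc13 and H2ac13, H2ac15 and H2bc15, H2ac12 and H2bc12, and H2bc7 and H2ac7. It was covered in part at H2ac22 and H2bc22 (63.6%), H2ac11 and H2bc11 (60.9%), and H2ac8 and H2bc8 (44.7%). Succinyllysine lay between the starts of none of the 10 pairs, and H2ac11 and H2bc11 were the only pair with a marked gene. Edges near the start were also frequent outside these pairs, at 21 of 39 members (53.8%), beside 10 of 14 members in pairs (71.4%).

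The H3K4me3 regions at the 60 members had a median widest width of 3400 bp, the same as over all 13421 genes with H3K4me3. Members with 2 or more H3K4me3 regions within 1000 bp numbered 33 (55%), against 33.6% of all genes with H3K4me3. The widest was 8200 bp (chromosome 13, 23525501 to 23533700), over H4c8 and ending within 1000 bp of H2ac10, followed by 7700 bp at H2aw and 6800 bp at H1f5 and H3c11. The narrowest were 600 bp at H4c17, 1000 bp at H4c18 and 1100 bp at H3c13 and H2bc18.

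The members in 3 places departed from the H3K4me3 pattern. The testis pair H2bc1 and H2ac1 (chromosome 13, 23933725 to 23934913), which encode TH2B and TH2A, had H3K27me3 regions of 600 bp (23933901 to 23934500), 400 bp (23935001 to 23935400) and, at H2ac1, 1200 bp (23935401 to 23936600). The 280 bp between their starts was fully within the first of these, and the nearest H3K4me3 region was 168700 bp away. On chromosome 11, H2bu2 (58948911 to 58949372) began inside an H3K27me3 region of 6500 bp (58942701 to 58949200), and another of 3300 bp (58949501 to 58952800) began beyond its end. Together they covered 62.8% of the gene and 87.8% of the gene with 1000 bp on each side. H2aw (58954685 to 58955192), the other member of that pair, lay wholly within the 7700 bp H3K4me3 region (58953201 to 58960900), which began 400 bp beyond the H3K27me3 region.

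The third group was H2bc23, H2ac23, H2ac24 and H4bc24 in the first chromosome 13 cluster, where no region of any list lay within 1000 bp. The promoters of H2bc23 and H4bc24 were identical in all 300 bases, and runs of 36 bases were shared between H2ac23 and H2ac24 and between H4c17 and H4c18, whose H3K4me3 regions were the narrowest. Of the 67 members, 14 shared a run of 36 bases with the promoter of another member at a different position, among them H3c14 with H3c15 and H2ac18 with H2ac19 on chromosome 3. How the authors placed reads that match more than 1 copy was not found in the labels or notes, so the marks of these 14 genes are uncertain. Among the 14, only H4c9, which shares runs with H4c17 and H4c18, had succinyllysine. H3K4me3 did not cover the gene at H2ac19 (0%) and covered 0.719% of H2ac18, 37.3% of H3c14 and 49.6% of H3c15. The 5 members with no promoter entry could not be checked for copies. Of the 48 checked members without such a copy, 45 had H3K4me3 and 13 had succinyllysine.

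Other protein-coding genes inside the clusters numbered 9. Succinyllysine lay at 0 of the 9 (interval 0 to 33.6), against 10.1% of all protein-coding genes, and so few genes cannot set them apart from that share. H3K4me3 lay at 4 (44.4%, all genes 61.3%) and H3K27me3 at 6 (66.7%, all genes 20.1%). In the first chromosome 13 cluster, the zinc finger gene Zfp184, Pom121l2 and the thymus protease gene Prss16 had H3K4me3, and Prss16 also had H3K27me3. In the second cluster, the iron regulator Hfe had H3K4me3, while the phosphate transporter genes Slc17a1, Slc17a2, Slc17a3 and Slc17a4 and Trim38 had H3K27me3 and no H3K4me3. These 5 genes lie between H1f1 and the H3K27me3-marked pair H2bc1 and H2ac1.

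Among 11 replication-independent histone genes, which are expressed outside S phase as well, all had H3K4me3 and none had H3K27me3. Succinyllysine lay at 3 of them (27.3%, interval 6.02 to 61.0), namely H1f0, which encodes the linker histone of non-dividing cells (1700 bp), H2ax, whose product is phosphorylated at DNA breaks (1400 bp), and Macroh2a2 (1200 bp). The other 8 were H1f10, H2az1, H2az2, H2aj, H3f3a, H3f3b, Cenpa and Macroh2a1. Of 29 genes for the making and processing of histone messages, all had H3K4me3 and none had H3K27me3. Succinyllysine lay at 3 of the 29 (10.3%): the transcription factor gene E2f3 (900 bp), and Srrt (500 bp) and Cstf2t (500 bp), which act in RNA processing. Picked as the best-known regulators after their values were seen, Npat, Slbp, which encodes the stem-loop binding protein, and Casp8ap2 had H3K4me3 regions of 3600, 3800 and 2900 bp and no succinyllysine. Of 21 histone chaperone genes, all had H3K4me3, none had H3K27me3 and 1 had succinyllysine (4.76%), the H3.3 chaperone gene Atrx (500 bp). Beside the succinyllysine counts of these lists, the share was 14.2% over all genes with H3K4me3 and 10.1% over all genes.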

How the data were processed

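Chromatin of 16 samples was immunoprecipitated or kept as input. For each antibody the authors deposited a single table of mm10 coordinates (a start and an end), and it holds no other measurement. Bowtie2 version 2.2.3 is the aligner named in the submitters' processing notes. Which peak caller and threshold were used, whether input was subtracted and how samples were pooled is not stated in the labels. The number of reads behind a region is unknown.

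All starts ended in 01 and all ends in 00, so positions were read as 1-based on a grid of 100 bp. Genes came from a RefSeq table of GRCm38.p6, with 21887 protein-coding genes on the standard chromosomes. A gene was marked when a region overlapped the gene, widened by 1000 bp on each side, by 1 bp or more. Starts came from the promoter table, and genes with exactly 1 start entered the start analyses. Scripts used Python 3.11.15, pandas 2.3.3 and SciPy 1.17.1 and were tested on simulated data. The members and lists were chosen with earlier results of these data known. Text names every member with succinyllysine or H3K27me3, those without H3K4me3, the extremes of H3K4me3 width, and genes with succinyllysine or H3K27me3 on the lists of other histone, message-processing and chaperone genes. Cell type markers are given as counts of H3K4me3 and H3K27me3, with some named. Other members are named to place them. Macroh2a1 and Macroh2a2 were matched by older names, and H4f16, written on the replication-independent list, was counted as a member. Alternatives were other windows, parts of the gene, wider regions and other ways of giving regions to genes.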

Additional observations from a re-analysis of the deposited data

How the results depend on the processing

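The count of 16 histone genes with succinyllysine ranged from 14 to 19 with windows of 500 and 2500 bp, at gene ends, with regions wider than the list median, by the midpoint of the region and without regions that touch both other lists. It was 13 of 62 at annotated starts. Within these settings the share over all genes ran from 5.17% to 11.1%. It fell to 3 genes and 3 distinct regions when the region had to touch the gene itself. The members' share (4.48%) was then below that of all genes (8.18%), with gene length not matched. When each region was given to the nearest gene alone it was 10 genes (14.9%), against 8.69% of all genes. Under that rule a shared region counts for 1 gene. H3K4me3 ranged from 41 genes, with each region given to the nearest gene alone (61.2% against 55.7% of all genes), to 64 with the window of 2500 bp (62.6% of all genes). H3K27me3 ranged from 2 to 4. These ranges cover all alternatives, including those chosen after seeing the data (members checked and found without promoter copies, where succinyllysine was at 13 of 48, and without gene models over 1000 bp, where it was at 15 of 61). The comparison with other short genes was also chosen then. The 13 distinct succinyllysine regions became 11, 13 and 12 with windows of 500 and 2500 bp and with regions under 1000 bp apart joined. No paired analysis was possible because the lists hold no values per sample, and for the same reason no replicate could be left out. The lists hold no score by which a stricter threshold could be set, and read depth is unknown.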
